A study of Rattus norvegicus with 8 samples.

Results

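Levels of 44 genes of Wnt signalling were followed in RNA sequencing libraries of hippocampus and hypothalamus. The animals were male Sprague Dawley rats, which are outbred. The genes were chosen by symbol, from the name families Wnt, Fzd, Sfrp, Dkk and Rspo together with Wif1, Lrp5, Lrp6, Axin1, Axin2 and Lef1, out of 16514 symbols listed for either tissue. Of the 44 genes, 43 were listed for both tissues, and Wnt10b was listed for hypothalamus only. Tcf7, also part of the choice, and Rspo4, Sfrp1, Fzd7 and Wnt2 were listed for neither tissue. The families shown are thus not complete. All rats were fed from the age of 2 months and received an omega-3 fatty acid diet with DHA (docosahexaenoic acid) and 15% fructose in the drinking water for 6 weeks. There were 4 libraries of each tissue, 8 in all, each from this single diet arm, so the libraries hold no contrast for fructose or DHA and the comparison is between tissues. Whether the 4 libraries of a tissue stand for separate animals is not stated, so errors describe the spread among libraries, which may be technical.

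Wnt proteins are secreted lipid-modified ligands that bind a Frizzled receptor together with Lrp5 or Lrp6. In the canonical branch this halts the destruction complex built on Axin, so that beta-catenin accumulates and acts with Lef1 and related Tcf factors on target genes, Axin2 among them. R-spondins raise the amount of Frizzled at the cell surface, while Sfrp proteins, Wif1 and most Dkk proteins hold the ligands or the co-receptors back. In the hippocampus the pathway is known for its part in dentate neurogenesis and synapse formation. In the hypothalamus it is known from patterning during development.

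Values are FPKM, fragments relative to transcript length and to the fragments of the library, which are comparable per length and can be set side by side between genes. Loci that carry the same symbol were added up and the sum was divided by 1 factor per library, from 0.892 to 1.12, giving scaled FPKM. The tissues were deposited in 2 tables made apart, so no test was run across them and levels stand side by side. Of the 15892 genes listed in both tables, 10554 reached a mean of 1 scaled FPKM over the 8 libraries, and 32 of the 44 Wnt genes did. A gene was called when its mean difference on the scale of log2(scaled FPKM + 1) was at least 1 and every library of 1 tissue lay above every library of the other. Read depth is unknown, so no counting interval can be given.

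The libraries carried the markers of their labelled tissue. All 10 hippocampal markers past the filter were lower in hypothalamus and all 12 hypothalamic ones were higher, although Fibcd1, a hippocampal CA1 marker, was listed at 0 throughout. Zbtb20, also in the hippocampal list, was listed for hypothalamus only, at a mean of 6.71 scaled FPKM. Emx1 and Dsp of that list and Nkx2-4 of the hypothalamic list were listed for neither tissue. The sums that follow hold only markers listed for both tissues. Summed choroid plexus markers, a tissue that lies against the hippocampus, stood at 62.1 and 84.5 scaled FPKM in hippocampus replicates 1 and 2, at 6979 and 5196 in replicates 3 and 4, and between 39.6 and 123 in hypothalamus, with Otx2 listed at 0 throughout. Mural and meningeal markers were higher in hypothalamus for 4 of 9 genes and lower for none, with sums of 322 to 649 against 140 to 407, and Col1a2 listed at 0 throughout. Thalamic and habenular markers summed to 241 to 271 in hypothalamus against 74.6 to 88.2. That hypothalamus sum was mostly Tac2 and Slc17a6, at 174 and 50.2 against 29.7 and 5.95 in hippocampus. Of the 9 genes of the list past the filter, 3 were called higher and 2 lower, with a median difference of -0.04. Ependymal and tanycyte markers summed to 414 to 594 in hypothalamus against 345 to 505, with 5 of 11 genes called higher and 3 lower. Vim, at a mean of 339 against 44.7, and Crym, at 25.9 against 266, went opposite ways within this sum. Pituitary markers summed to 101 to 551 against 1.42 to 1.77, with Prl listed at 0 throughout. That sum holds Pomc, which is also in the hypothalamic list, at a mean of 120 against 0.764. Endothelial markers summed to 81.1 to 120 in hypothalamus against 150 to 184, astrocyte markers to 3139 to 3694 against 2728 to 3136, oligodendrocyte markers to 5569 to 9252 against 4274 to 6198, and microglial markers to 487 to 514 against 297 to 449. Their part in the differences described here was not tested, and in bulk tissue fewer cells of a type and less RNA per cell cannot be told apart.

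Of the 32 genes compared, 6 had higher levels in hypothalamus (Wnt5a, Wnt6, Wnt11, Fzd2, Fzd5 and Lef1), 6 had lower levels (Wnt4, Wnt9a, Rspo2, Rspo3, Fzd3 and Dkk3) and 20 were not called. These shares of 18.8% each stand beside 13.3% of all genes called higher and 13.4% called lower. Libraries of the tissues did not overlap, whatever the size of the difference, for 22 of the 32 genes, beside 53.4% of all genes. The median difference was -0.17, beside -0.04 for all genes compared. A mean of at least 1 scaled FPKM was reached by 27 Wnt genes in hippocampus and by 32 in hypothalamus.

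**Figure D1:**
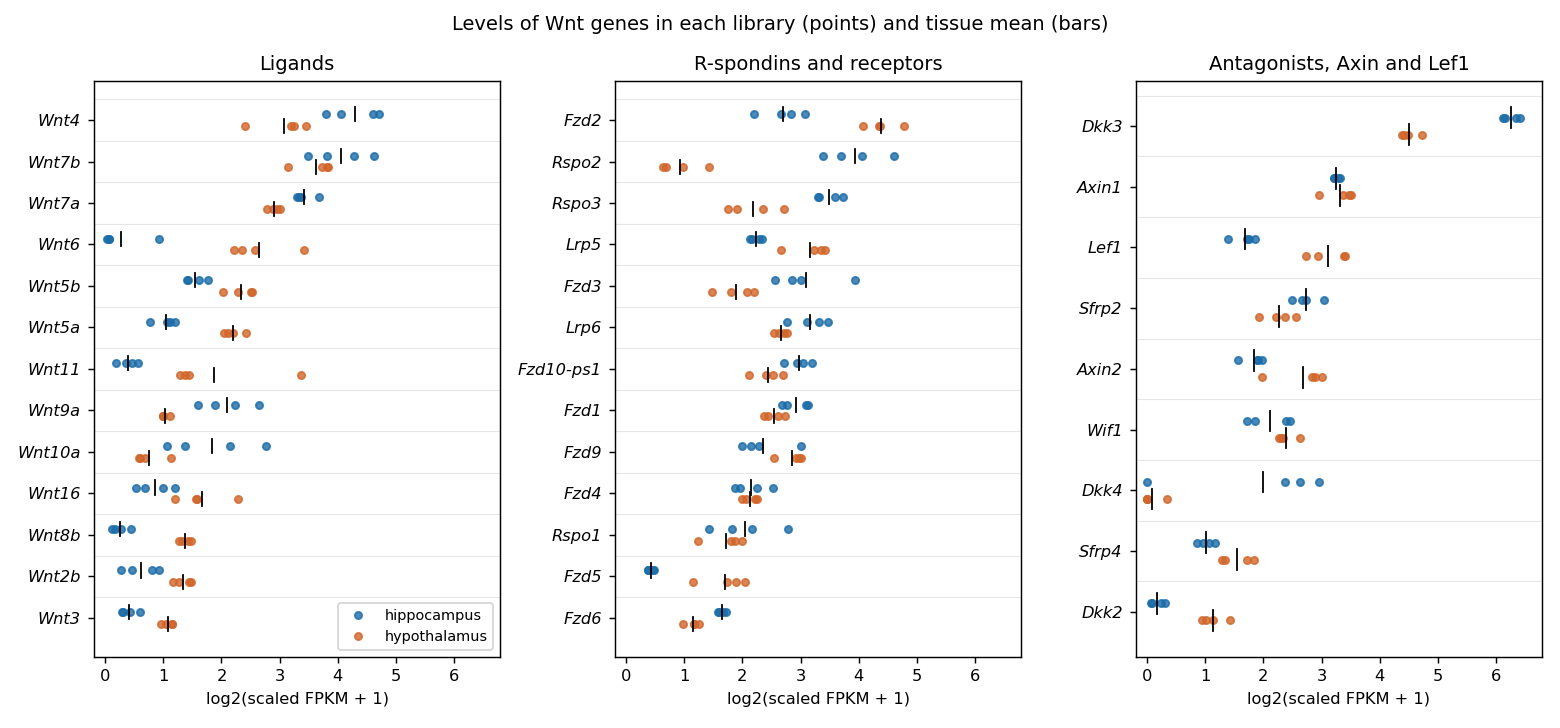
Levels of the 35 Wnt genes with a mean of at least 1 scaled FPKM in either tissue, as log2(scaled FPKM + 1) on the x axis and genes on the y axis, with 1 point per library (4 of hippocampus in blue, 4 of hypothalamus in orange) and a vertical bar at the mean of the log2 values. Dkk3 lies highest in hippocampus at 75.9 scaled FPKM, and Rspo2, Wnt6, Fzd2 and Lef1 show orange and blue points well apart.

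Among the ligands, Wnt4, which signals without beta-catenin in many settings and is needed for kidney and gonad formation, was the highest in hippocampus. It was at 25.3, 23.3, 15.7 and 12.9 scaled FPKM in hippocampus replicates 1 to 4 and at 4.27, 9.93, 8.12 and 8.52 in those of hypothalamus. The tissues did not overlap, hypothalamus replicate 1 was the lowest library of its tissue, and the log2 difference was -1.22 ± 0.32 (SE). Without hypothalamus replicate 1 the difference was -0.99, just under the limit, and without replicate 1 of both tissues it was -0.86.

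Wnt7b and Wnt7a, close relatives that drive the canonical branch during formation of brain vessels and oligodendrocytes, followed in hippocampus. Wnt7b stood at 18.5, 23.7, 13.1 and 10.2 scaled FPKM in hippocampus and at 7.89, 13.3, 12.2 and 13 in hypothalamus, so its tissues overlapped. Wnt7a stood at 11.8, 8.90, 9.05 and 9.27 in hippocampus and at 5.85, 7.0, 6.79 and 6.42 in hypothalamus. Every hippocampus library was above every hypothalamus library for Wnt7a, but the difference of -0.51 ± 0.10 was under the limit.

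Wnt6 differed most among the ligands in the other direction. It was at 3.62, 9.75, 4.09 and 5.0 scaled FPKM in hypothalamus, against 0.0262, 0.0497, 0.0407 and 0.898 in hippocampus, a difference of 2.37 ± 0.35. Hippocampus replicate 4 stood far above the other three of its tissue and still below every hypothalamus library. The mural and meningeal markers listed for both tissues summed to 140, 232, 270 and 407 scaled FPKM in hippocampus and to 322, 544, 649 and 441 in hypothalamus. This sum was highest in the same library as Wnt6 in hippocampus. In hypothalamus Wnt6 was highest in replicate 2 and the sum in replicate 3. The sum leaves out Ptgds and Myh11, which were listed for hypothalamus only. Ptgds was at 3977, 11498.5, 5420 and 7400 there, highest in replicate 2 and far above the sum of the others. Myh11 was at 19.3, 23.9, 34.4 and 19.0, highest in replicate 3. Of the 9 markers above 0 in both tables, 5 were highest in hippocampus replicate 4, 7 in hypothalamus replicate 2 and 3 in both. Their part in the Wnt6 difference was not tested.

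Wnt5a, the main ligand of the planar polarity and calcium branches, was at 3.57, 4.34, 3.35 and 3.12 scaled FPKM in hypothalamus, against 0.703, 1.16, 1.31 and 1.1 in hippocampus. The lowest hypothalamus library was above every hippocampus library, with a difference of 1.15 ± 0.12. Its relative Wnt5b was at 3.06, 4.67, 3.85 and 4.73 in hypothalamus and at 2.06, 1.64, 1.68 and 2.39 in hippocampus. Wnt5b likewise did not overlap, but its difference of 0.78 ± 0.14 was under the limit, and 1.03 with a pseudocount of 0.1.

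Wnt11, a ligand of the same non-canonical class, was called higher in hypothalamus at 1.47 ± 0.51, and this rested on 1 library. It was at 1.72, 9.27, 1.58 and 1.45 scaled FPKM in hypothalamus, against 0.143, 0.385, 0.289 and 0.481 in hippocampus. Of the 9.27 in hypothalamus replicate 2, 7.83 came from 1 of 3 loci that carry the symbol in that table, a locus that stood at 0.823, 0.156 and 0.245 in the other libraries. Without hypothalamus replicate 2 the difference was 0.96 and the mean level fell under the filter. The hippocampus table lists 1 locus for Wnt11, and with only the highest locus kept the difference was 1.01, just past the limit.

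Wnt9a and its neighbour Wnt3a both stood at their smaller mean in hypothalamus. In the RefSeq annotation of the rat assembly GRCr8 they are adjacent protein-coding genes. Wnt9a was at 5.29, 2.01, 2.69 and 3.68 scaled FPKM in hippocampus and at 0.982, 1.17, 1.0 and 0.984 in hypothalamus, a difference of -1.06 ± 0.23. That call was lost without hippocampus replicate 1, at -0.89, without replicate 1 of both tissues, at -0.87, with the deposited FPKM left unscaled, at -0.92, and with scaling to the upper quartile, at -0.99. Wnt3a, a canonical ligand of the hippocampal stem cell niche, was at 0.457, 0.287, 0.438 and 0.161 in hippocampus, and in hypothalamus it was listed at 0 in 3 libraries and at 0.0165 in replicate 4. Its level was under the filter, so it was not compared.

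Wnt10a, which lies next to Wnt6 in GRCr8, did not share the pattern of Wnt6. It was at 3.45, 1.09, 1.60 and 5.82 scaled FPKM in hippocampus and at 0.615, 0.490, 0.507 and 1.19 in hypothalamus. Hippocampus replicate 2 fell between hypothalamus replicates 1 and 4, so the difference of -1.09 ± 0.41 was not called. It passed without hippocampus replicate 2, at -1.36, without hypothalamus replicate 4, at -1.22, with only the highest locus kept, at -1.03, and when same-numbered libraries were compared, at -1.09.

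Wnt16, Wnt2b, Wnt8b and Wnt3 were low, and all had every hypothalamus library above the highest of hippocampus. Wnt16 was at 1.99, 3.88, 1.97 and 1.29 scaled FPKM in hypothalamus against 1.29, 0.615, 0.442 and 0.981 in hippocampus, with hypothalamus replicate 4 just above hippocampus replicate 1, and a difference of 0.81 ± 0.27 that was 1.34, and called, with a pseudocount of 0.1. Wnt2b was at 1.72, 1.79, 1.42 and 1.25 in hypothalamus against 0.214, 0.370, 0.743 and 0.897 in hippocampus, a difference of 0.73 ± 0.17 that was 1.46, and called, with a pseudocount of 0.1. The higher pair of hippocampus libraries for Wnt2b, replicates 3 and 4, was also the pair with the choroid plexus markers, and without these the difference was 0.98. Wnt8b, a ligand of the embryonic forebrain, was at 1.40, 1.49, 1.69 and 1.79 in hypothalamus against 0.208, 0.125, 0.357 and 0.0834 in hippocampus, and was not compared because its mean lay under the filter. Its difference was 1.12 ± 0.09, and 0.97 when only the higher of its 2 loci in the hypothalamus table was kept. Wnt3 was at 0.954, 1.06, 1.23 and 1.22 in hypothalamus against 0.508, 0.223, 0.344 and 0.230 in hippocampus, also under the filter.

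**Figure D2:**
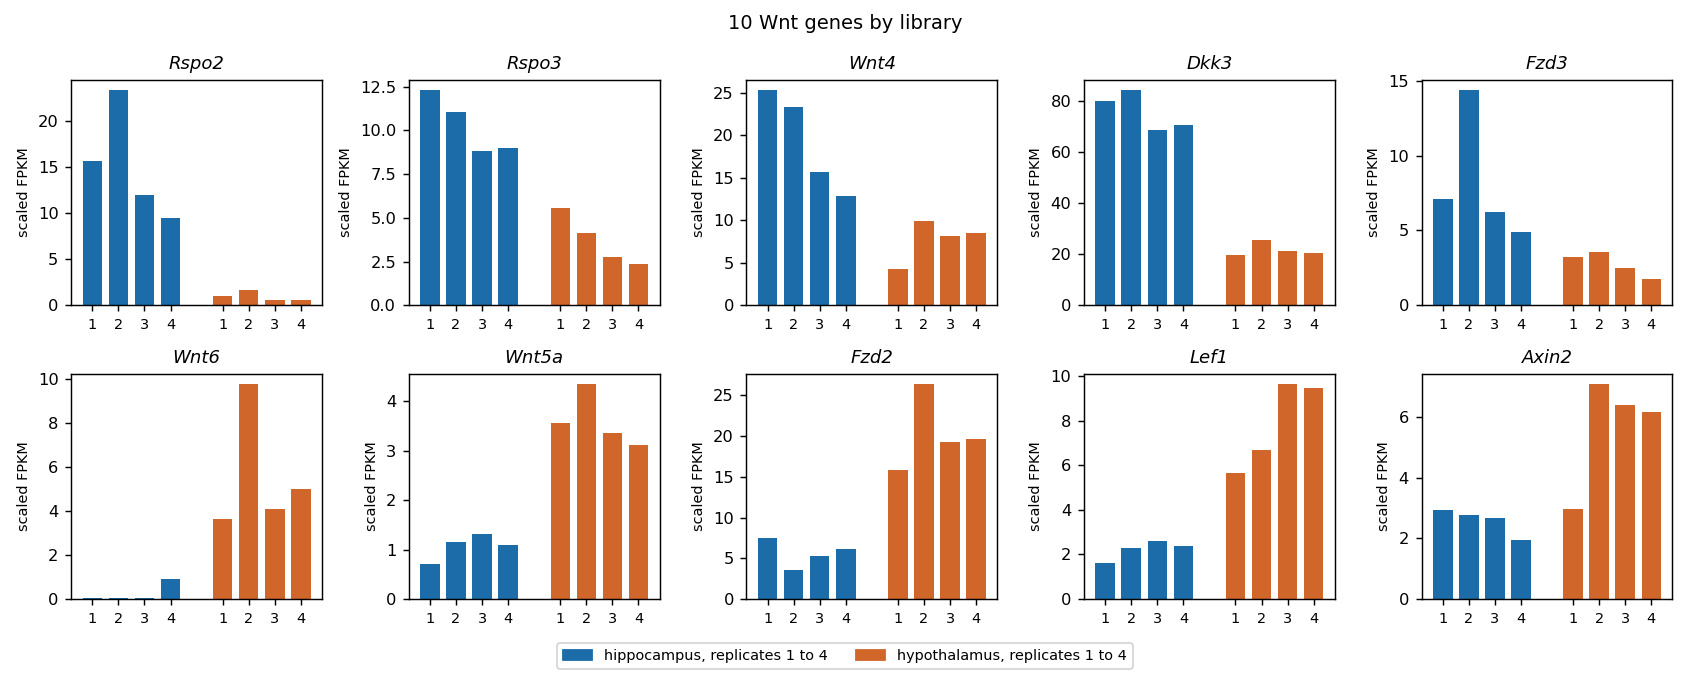
Scaled FPKM (y axis, linear from 0, with its own range for each gene) of 10 Wnt genes in each library (x axis, replicates 1 to 4 of hippocampus in blue and of hypothalamus in orange). Rspo2 reaches 23.3 in hippocampus and 1.67 at most in hypothalamus, and Axin2 in hypothalamus replicate 1, at 2.96, sits barely above the highest hippocampus library, at 2.93.

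Of the 3 R-spondins listed, 2 were called lower in hypothalamus, beside 13.4% of all genes, and Rspo1 was not called. Rspo2 was at 15.7, 23.3, 12 and 9.45 scaled FPKM in hippocampus and at 0.960, 1.67, 0.559 and 0.614 in hypothalamus. The tissues did not overlap, the difference was -3.01 ± 0.32, and the means of the tissues were 15.9-fold apart. Rspo3 was at 12.3, 11.1, 8.84 and 9.0 in hippocampus and at 5.56, 4.11, 2.76 and 2.35 in hypothalamus, with no overlap and a difference of -1.31 ± 0.24. Rspo1 overlapped, at 5.92, 1.67, 2.51 and 3.49 in hippocampus and 1.34, 2.51, 2.66 and 2.96 in hypothalamus, and its difference of -0.32 ± 0.34 was 0.09 without replicate 1 of both tissues. Summed over the 3 genes, R-spondins stood at 21.9 to 36.1 scaled FPKM in hippocampus and at 5.93 to 8.30 in hypothalamus.

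Of the R-spondin receptors in the pathway lists, Lgr4 and Lgr5 were not called. Lgr6 and Znrf3, of the same list, were listed for neither tissue. Lgr4, the R-spondin receptor with the higher level here, was at 9.69, 18.3, 11.6 and 9.63 scaled FPKM in hippocampus and at 16.9, 11.3, 9.95 and 8.92 in hypothalamus, a difference of -0.05 ± 0.27 with overlap. Lgr5, a stem cell marker in gut, was low in both tissues, at 0.485 to 0.848 in hippocampus and 1.3 to 1.54 in hypothalamus. Its tissues did not overlap, but the difference of 0.54 ± 0.09 was under the limit. Rnf43, a ubiquitin ligase that removes Frizzled and that R-spondins block, was at 3.11 to 4.98 and at 1.56 to 3.78, with overlap.

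Frizzled genes went both ways. Fzd2 was the second-highest Wnt gene in hypothalamus, at 15.9, 26.4, 19.3 and 19.7 scaled FPKM, against 7.46, 3.60, 5.33 and 6.17 in hippocampus. Its difference of 1.70 ± 0.24 was called under each of the 19 alternatives tried. Fzd3, needed for the guidance of axons, went the other way, at 7.08, 14.4, 6.26 and 4.88 in hippocampus and 3.23, 3.58, 2.51 and 1.78 in hypothalamus, a difference of -1.20 ± 0.34. Hippocampus replicate 2 was the highest by far, and without it the difference was -0.93 and not called.

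Fzd5 was near the lower end in hippocampus, at 0.392, 0.376, 0.301 and 0.304 scaled FPKM, and reached 2.32, 3.13, 2.72 and 1.23 in hypothalamus. The tissues did not overlap, with a difference of 1.28 ± 0.20. It carried 2 loci in the hypothalamus table and 1 in the other, and the difference was 1.05 when only the higher locus was kept. Fzd6 did not overlap either, at 2.02, 2.17, 2.31 and 2.00 in hippocampus and 1.39, 1.24, 1.25 and 0.972 in hypothalamus, but differed by only -0.50 ± 0.07.

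Fzd1, Fzd4 and Fzd9 overlapped between the tissues. Fzd1 ranged from 5.43 to 7.69 scaled FPKM in hippocampus and from 4.16 to 5.67 in hypothalamus. Fzd4, the receptor of the vascular ligand norrin, ranged from 2.68 to 4.73 and from 3.0 to 3.74. Fzd9, which is among the genes lost in Williams syndrome, was at 7.05 in hippocampus replicate 1 and at 2.97 to 3.89 in the others, against 4.79 to 7.02 in hypothalamus. Fzd10-ps1, a symbol that names a pseudogene, was at 5.54 to 8.20 in hippocampus and 3.34 to 5.48 in hypothalamus, without overlap at -0.54 ± 0.16, and reads shared with a related gene cannot be told apart in it.

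The co-receptor genes lay apart without passing the limit. Lrp5 was at 5.32, 9.70, 9.25 and 8.44 scaled FPKM in hypothalamus against 3.40, 3.90, 4.03 and 3.46 in hippocampus, a difference of 0.94 ± 0.18. It passed with the deposited FPKM left unscaled, at 1.14, with scaling to the upper quartile, at 1.04, with a pseudocount of 0.1, at 1.09, without hypothalamus replicate 1, at 1.11, and without replicate 1 of both tissues, at 1.08. Lrp6 was at 4.84, 5.78, 5.17 and 5.56 in hypothalamus against 5.82, 10.1, 8.99 and 7.65 in hippocampus, a difference of -0.51 ± 0.16. Lrp5 was thus above Lrp6 in all hypothalamus libraries and below it in all of hippocampus.

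**Figure D3:**
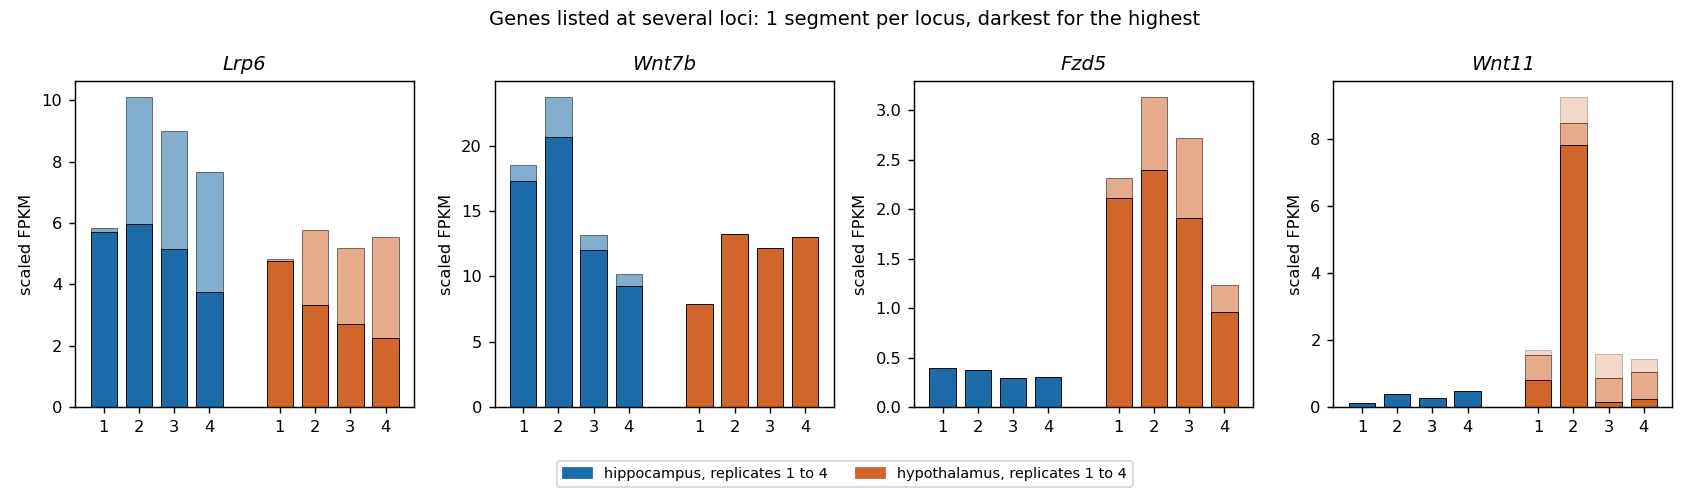
Scaled FPKM (y axis, linear from 0) of Lrp6, Wnt7b, Fzd5 and Wnt11 in each library (x axis), stacked by locus with the highest locus darkest. In each tissue 1 of the 2 Lrp6 loci is near 0 in replicate 1, at 0.0982 and 0.0779, and 1 locus carries most of Wnt11 in hypothalamus replicate 2.

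Replicate 1 of each tissue was built up differently at Lrp6. One of its 2 loci was at 0.0982 scaled FPKM in hippocampus replicate 1 and at 3.85 to 4.13 in the other hippocampus libraries. In hypothalamus, 1 of the 2 Lrp6 loci was at 0.0779 in replicate 1 and at 2.44 to 3.30 in the other libraries. Whether these are the same locus in both tables is not known. Replicate 1 also stood apart in its lowest values: for loci under 0.05 FPKM, ratios between replicates 2, 3 and 4 fell on shared steps for 89.3 to 94.4% of loci, and ratios with replicate 1 for 9.02 to 12.8%. The sum over both loci of Lrp6 in replicate 1 is therefore set beside those of the other libraries with this limit.

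Dkk3 was the highest Wnt gene in both tissues. Unlike other Dkk proteins, its product is not known to bind the Lrp co-receptors, and the gene is a marker of hippocampal pyramidal cells. It was at 80.0, 84.2, 68.9 and 70.5 scaled FPKM in hippocampus and at 19.8, 25.5, 21.4 and 20.5 in hypothalamus. The spread within each tissue was small beside the gap, with a difference of -1.76 ± 0.10 that was called under each of the 19 alternatives tried. In hippocampus it lay clear of Wnt4, the next gene in order, at percentile 93.4 of all listed symbols, whereas in hypothalamus its range overlapped that of Fzd2.

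The other Dkk genes were low or listed at 0. Dkk2, an Lrp6 antagonist, was at 1.69, 1.02, 1.2 and 0.933 scaled FPKM in hypothalamus, against 0.0509, 0.0563, 0.173 and 0.237 in hippocampus, under the filter. Dkk4 was at 0, 6.72, 5.2 and 4.17 in hippocampus, and in hypothalamus it was listed at 0 in 3 libraries and at 0.264 in replicate 3. The 0 in hippocampus replicate 1 kept the gene from being called at -1.90 ± 0.68. A value of 0 in these tables can be a failed estimate, and replicate 1 also stood apart at Lrp6 and in its lowest values. Whether Dkk4 was absent from that library is thus not known. Without hippocampus replicate 1 the difference was -2.59. Dkk1, the best known antagonist of the family, and Dkkl1 were listed at 0 in all 8 libraries.

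None of the secreted antagonists that hold the ligands themselves was called. Sfrp2 was at 5.64, 5.31, 7.28 and 4.62 scaled FPKM in hippocampus and at 4.88, 3.66, 4.16 and 2.81 in hypothalamus. Sfrp4 was at 0.822, 0.944, 1.1 and 1.24 in hippocampus and at 1.52, 2.29, 2.57 and 1.45 in hypothalamus, without overlap but with a difference of only 0.53 ± 0.15. Wif1 was at 4.47, 4.26, 2.29 and 2.62 in hippocampus and at 3.81, 3.94, 4.07 and 5.17 in hypothalamus. Its lower pair in hippocampus was replicates 3 and 4, the libraries with choroid plexus markers, and without them the difference was -0.05 in place of 0.28 ± 0.20. Sfrp5 stayed under the filter and varied widely, from 0.136 to 2.32 in hypothalamus and from 0.126 to 1.08 in hippocampus.

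Inside the cell, the nuclear partner of beta-catenin differed more than the scaffold. Lef1 was at 5.64, 6.71, 9.64 and 9.46 scaled FPKM in hypothalamus, against 1.64, 2.29, 2.60 and 2.37 in hippocampus. The lowest hypothalamus library was above all of hippocampus, and the difference of 1.44 ± 0.19 was called under each of the 19 alternatives tried. Axin1, the scaffold of the destruction complex, was at 8.26, 8.70, 9.01 and 8.25 in hippocampus and at 6.73, 10.3, 10.1 and 9.31 in hypothalamus, a difference of 0.07 ± 0.13.

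Axin2, a feedback inhibitor and direct target of the canonical branch, stood between. It was at 2.93, 2.77, 2.69 and 1.96 scaled FPKM in hippocampus and at 2.96, 7.09, 6.40 and 6.18 in hypothalamus. Hypothalamus replicate 1 was barely above the highest hippocampus library, and the other hypothalamus libraries were well above it. The tissues thus did not overlap, by a narrow margin. The difference was 0.85 ± 0.25, under the limit, and not called. It was 1.08 without hypothalamus replicate 1, 1.13 without replicate 1 of both tissues, 1.03 with values as deposited and 1.04 with a pseudocount of 0.1, and passed in each of these.

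Promoter sequences of Axin2, Lef1 and Dkk1 are shown because all 3 are known targets of beta-catenin: Lef1 was called and Axin2 fell short of the limit, while Dkk1 was listed at 0 throughout, which can be a failed estimate and leaves its level unknown. Each line gives the 250 bases before the start site in the RefSeq promoter table of the build GRCr8, 5′ to 3′ along the gene. Capitals mark the core letters bound by Tcf and Lef factors, TCAAAG on either strand (CTTTGA on the other). The windows are chr10:94398535-94398784 on the + strand for Axin2, chr2:222340463-222340712 on the + strand for Lef1 and chr1:237798651-237798900 on the - strand for Dkk1.
Axin2: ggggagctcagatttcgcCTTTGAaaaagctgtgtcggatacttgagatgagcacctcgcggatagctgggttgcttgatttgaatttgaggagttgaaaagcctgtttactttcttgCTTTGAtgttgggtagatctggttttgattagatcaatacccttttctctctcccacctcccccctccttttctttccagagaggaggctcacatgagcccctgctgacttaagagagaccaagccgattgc
Lef1: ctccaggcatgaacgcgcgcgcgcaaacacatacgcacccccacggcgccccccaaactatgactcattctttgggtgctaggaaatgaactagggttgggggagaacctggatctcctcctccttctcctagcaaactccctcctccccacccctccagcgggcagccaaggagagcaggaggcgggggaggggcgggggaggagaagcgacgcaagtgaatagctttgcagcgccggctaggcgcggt
Dkk1: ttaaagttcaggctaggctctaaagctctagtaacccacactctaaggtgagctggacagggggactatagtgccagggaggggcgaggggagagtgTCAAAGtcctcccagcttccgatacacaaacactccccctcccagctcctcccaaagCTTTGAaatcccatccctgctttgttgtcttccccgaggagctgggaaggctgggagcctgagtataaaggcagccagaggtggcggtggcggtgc

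The Axin2 window held 2 matches, which begin 232 and 132 bases before the start site, and the Dkk1 window held 2, at 153 and 96 bases. The Lef1 window held none. Of 33469 rat promoter windows of the same length, 13.9% held at least 1 match. Among the 29 Wnt genes that have a window, 13.8% did, which is 4 genes. The 29 windows had a median GC content of 63.6% against 51.2% for all. A match is a stretch of letters and no measured site, and the windows show no factor bound.

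**Figure D4:**
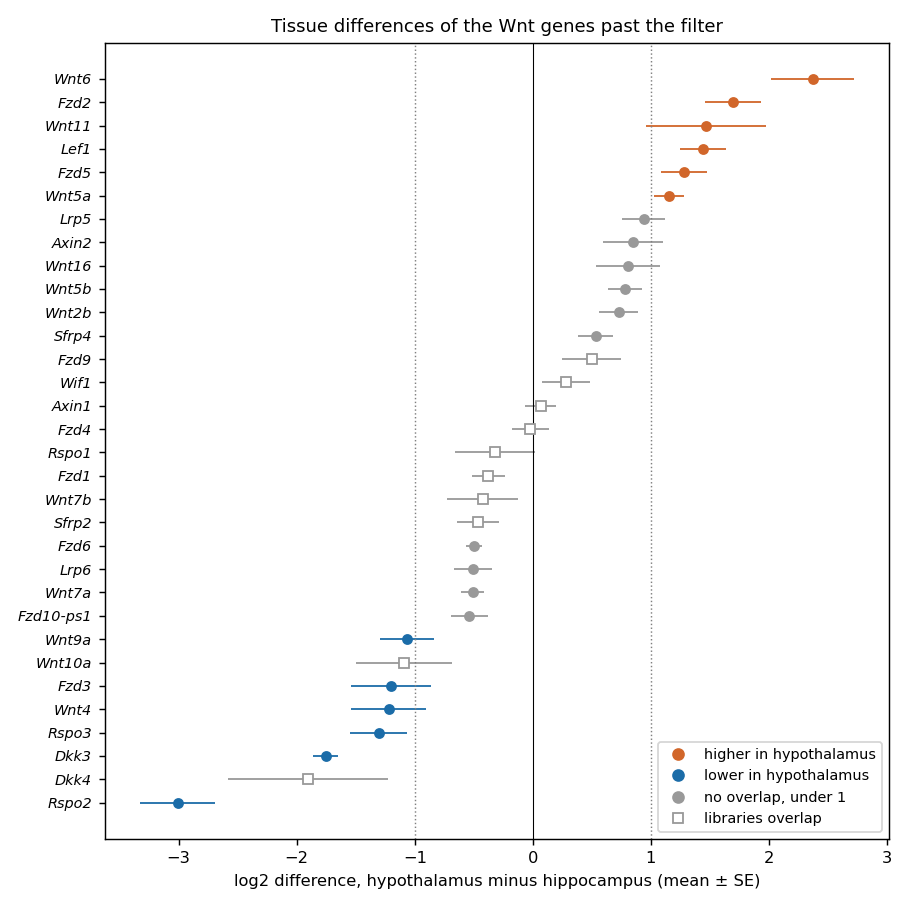
Mean difference in log2(scaled FPKM + 1), hypothalamus minus hippocampus (x axis, horizontal bars ± SE over 4 libraries per tissue), of the 32 Wnt genes past the filter (y axis, in order of difference), with dotted lines at the limits of -1 and 1. Filled circles stand for genes whose tissues do not overlap and open squares for those that do; 6 orange and 6 blue circles lie past the limits, from Wnt6 at 2.37 to Rspo2 at -3.01.

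Just inside the limits of the call lay Wnt9a at -1.06 and Wnt5a at 1.15. Just outside lay Lrp5 at 0.94 and Axin2 at 0.85. Wnt10a at -1.09 and Dkk4 at -1.90 were past the limit in size and had libraries that overlapped.

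In order of level, hippocampus was led by Dkk3, Wnt4, Wnt7b, Rspo2 and Rspo3, at means of 75.9 ± 7.40, 19.3 ± 5.97, 16.4 ± 5.99, 15.1 ± 6.04 and 10.3 ± 1.67 scaled FPKM (SD, n = 4). Beyond Dkk3, each of these overlapped with the next in order. Hypothalamus was led by Dkk3 and Fzd2, at 21.8 ± 2.55 and 20.3 ± 4.39, which overlapped with each other and lay clear of Wnt7b, Axin1 and Lrp5, at 11.6 ± 2.52, 9.12 ± 1.65 and 8.18 ± 1.98. Wnt7b and Dkk3 were thus among the 5 highest in both tissues. Spread between libraries on the log2 scale was largest for Dkk4, Wnt10a and Fzd3 in hippocampus, with SDs of 1.35, 0.77 and 0.60, and for Wnt11, Sfrp5 and Wnt6 in hypothalamus, with SDs of 1.0, 0.74 and 0.55.

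Of the Wnt genes listed for both tissues, 8 had a mean under 1 scaled FPKM in each, and so did Wnt10b in hypothalamus. Fzd8 and Wnt8a were listed at 0 in all 8 libraries, as were Dkk1 and Dkkl1, and a value of 0 in these tables can be a failed estimate. Wnt1, a midbrain ligand, was at 0.0560 to 0.305 in hippocampus and at 0 to 0.0368 in hypothalamus. Wnt9b was at 0.141 to 0.325 and 0.0797 to 0.243, and Wnt10b was at 0.0415 to 0.0974 in hypothalamus. Wnt3a and Sfrp5, described above, complete them.

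**Figure D5:**
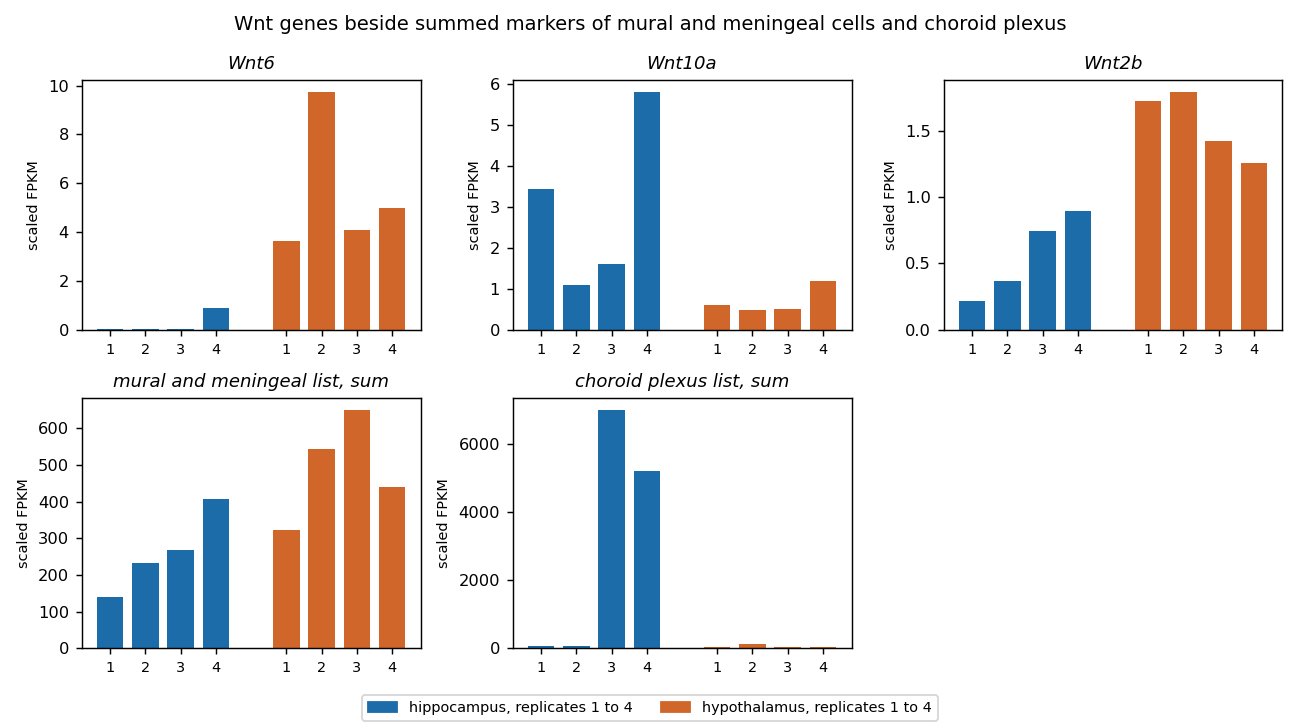
Scaled FPKM (y axis, linear from 0, with its own range for each panel) of Wnt6, Wnt10a and Wnt2b, and of the mural and meningeal and the choroid plexus markers, in each library (x axis). Markers are summed over the genes of each list that were listed for both tissues. Wnt6 is highest in hypothalamus replicate 2 and the mural and meningeal sum in replicate 3, and the choroid plexus sum is at 6979 and 5196 in hippocampus replicates 3 and 4 against 123 at most elsewhere.

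Of 77 other pathway genes in 6 lists, 68 were listed in a table and 60 passed the filter, of which hypothalamus was called higher for 2, lower for 7 and neither for 51. Their median difference was -0.15. These shares of 3.33% and 11.7% stand beside 13.3% and 13.4% of all genes, and the counts changed with the scaling and with single libraries.

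For ligand release, 1 of 5 genes was higher and 1 lower. Gpc3, a glypican that carries Wnt ligands on the cell surface, was at 22.6 ± 4.63 scaled FPKM in hypothalamus against 8.23 ± 1.32 in hippocampus, a difference of 1.34 ± 0.17. Gpc4, of the same family, was at 10.7 ± 3.41 against 25 ± 5.41, a difference of -1.16 ± 0.25 that was -0.94 with values as deposited. Wls, the carrier that brings ligands to the surface, was at 38.4 ± 4.91 against 20.1 ± 5.08, and Porcn, which adds their lipid, at 19.0 ± 2.16 against 29.3 ± 5.73, neither of them called.

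Among receptor partners, Lrp4, a co-receptor relative at the synapse, was the only 1 of 11 called, at 5.48 ± 0.839 scaled FPKM in hypothalamus against 14.4 ± 2.18 in hippocampus, a difference of -1.24 ± 0.14. Tspan12, a partner of Fzd4, was at 31.9 ± 8.86 against 22.4 ± 5.82, and Ryk, a Wnt receptor with a kinase-like domain, at 14 ± 1.12 against 16.0 ± 1.34. Sostdc1, an antagonist made by choroid plexus, was at 26.4 and 15.4 in hippocampus replicates 3 and 4, and under 1 in all other libraries.

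For the destruction complex and the steps around it, 1 of 17 genes was called. Csnk1d, a casein kinase 1, was at 37.5 ± 3.55 scaled FPKM in hypothalamus against 85.2 ± 11.6 in hippocampus. Its difference of -1.16 ± 0.12 was -0.93 with values as deposited and -0.55 when only the highest locus was kept. Ctnnb1, encoding beta-catenin, was the highest gene of the lists in hippocampus, at 159 ± 13.7 against 111 ± 9.81 in hypothalamus, a difference of -0.52 ± 0.09. Gsk3a, a kinase of the complex, was at 113 ± 9.29 in hypothalamus against 84.4 ± 31.9.

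Of 11 nuclear genes, 1 was higher and 3 were lower. Tcf7l1, a Tcf factor that mostly represses, was at 10.8 ± 2.01 scaled FPKM in hypothalamus against 3.45 ± 0.75 in hippocampus, a difference of 1.41 ± 0.18 that has the direction of Lef1. Tcf7l2, the Tcf factor of thalamic neurons, was at 9.45 ± 1.89 against 5.45 ± 2.53, with overlap. Nlk, a kinase that restrains Tcf and Lef factors, was at 2.72 ± 0.31 against 16.5 ± 8.83, a difference of -2.09 ± 0.39, with 3 loci in the hippocampus table and 1 in the other, and -1.44 with the highest locus only. Senp2, a SUMO protease, differed by -1.46 ± 0.15, with 2 loci in the hippocampus table and 1 in the other, and by -1.06 with the highest locus only. Tle1, a Groucho co-repressor, differed by -1.10 ± 0.23, and by -0.94 without replicate 1 of both tissues, -0.89 with unscaled FPKM and -0.99 when scaled to the upper quartile. Ctbp1, also a co-repressor, was at 143 ± 15.0 against 120 ± 15.1.

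None of the 8 planar polarity genes was called, by the same measure that called 26.7% of all genes in either direction. Celsr2 was at 38.9 ± 7.68 scaled FPKM in hypothalamus against 40.1 ± 9.27 in hippocampus, and Prickle1 came closest to the limit at -0.99 ± 0.18. Of 8 target genes, Neurod1, a neurogenic factor of dentate granule cells, was called lower, at 0.679 ± 0.172 against 11.8 ± 1.3, a difference of -2.93 ± 0.10. Jun was at 27.1 ± 2.85 against 51.2 ± 14.1 and Tnfrsf19 at 8.90 ± 0.965 against 15.9 ± 1.99, neither of them called.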

How the data were processed

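Libraries were made from poly-A RNA, per the labels' protocols. For each tissue, a table of FPKM per locus was deposited. Tools listed in the submitters' processing notes are Bowtie and TopHat in both generations, Cuffdiff and Cufflinks, with rn5 as build. Their versions were not given in the sources used here. None of the 48 hippocampus and 52 hypothalamus loci of Wnt genes carried a status other than OK.

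FPKM were summed over loci of a symbol and divided by library factors (median of ratios over symbols of both tables) (Python 3.11.15, pandas 2.3.3). Log2 used a pseudocount of 1, genes with a mean under 1 were left out, and calls needed a difference of 1 with no overlap. Across genes, libraries of 1 tissue correlated at 0.932 to 0.990, and no pair held identical values above 0. All Wnt genes at a mean of 1 or more in a tissue are named, with fixed counts from the pathway lists by difference and level. Cell type lists are given by their sums, in place of the 2 highest genes the naming rule sets. Lgr4, Lgr5, Rnf43, Tcf7l2 and Sostdc1 fall outside the rule and were chosen after their values were seen. The members, the lists and the rules were chosen with earlier results of these data known. Alternatives were another scaling, pseudocount, filter and treatment of loci, genes with another status left out, libraries left out, and same-numbered libraries compared. An alternative without hippocampus replicates 3 and 4 was chosen after seeing the data.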

Additional observations from a re-analysis of the deposited data

Results flagged for a closer look

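Among the 59 sets of 4 libraries with a mean of at least 1 scaled FPKM, 5 were flagged, or 8.47%, where chance gives about 1 in 20. The flag compares the gap to the nearest library, divided by the range of the 4 on the log2 scale, with Dixon's critical value. A small gap can thus be flagged where the other libraries lie close together. Axin2 was at 2.96 scaled FPKM in hypothalamus replicate 1 and at 6.18 to 7.09 in the others. Wnt7b was lowest in the same library, at 7.89 against 12.2 to 13.3. Wnt7a was highest in hippocampus replicate 1, at 11.8 against 8.90 to 9.27. Wnt11 was at 9.27 in hypothalamus replicate 2 and at 1.45 to 1.72 in the others. Wnt9a was at 1.17 in that library against 0.982 to 1.0.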

How the results depend on the processing

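With values as deposited the median over all genes lay at 0.18 in place of -0.04, and 65.3% of all calls were higher in place of 49.8%. Then 6 pathway genes were higher and 4 lower, beside 18.1% and 9.62% of all genes. The median difference of the Wnt genes was then 0.00. With upper-quartile scaling 5 pathway genes were higher, beside 15.7% of all genes, and the Wnt median was -0.08. A pseudocount of 0.1 called 11 Wnt genes higher and 6 lower, and 6 pathway genes higher and 8 lower. Of all genes it called 16.0% higher and 15.3% lower. A filter at a mean of 5 left 15 Wnt genes, of which 2 were higher and 5 lower, beside 12.6% and 15.2% of all genes. Their median was -0.51, and no filter gave a median of 0.00. Limited to symbols with a single locus per table, 1 pathway gene was higher and 4 lower, beside 12.8% and 12.3% of all genes. The Wnt median was then -0.06. Without replicate 1 of both tissues 5 pathway genes were higher, beside 15.1% of all genes, and the Wnt median was 0.01. Without hippocampus replicates 3 and 4, 5 pathway genes were higher and 12 lower, beside 15.2% and 14.6% of all genes. The Wnt median was then -0.08. Leaving out each replicate in turn gave 5 to 8 Wnt genes higher and 5 to 7 lower, 2 to 5 pathway genes higher and 7 to 9 lower, and Wnt medians of -0.37 to 0.07. Pathway genes higher numbered 4 without hippocampus replicate 1 and 5 without replicate 3. The cause of these shifts was not tested. The stricter filter and the locus limit also left fewer genes to compare. Deviations of same-numbered libraries correlated at -0.08 to 0.14, so the numbers were not taken to pair libraries. Comparing same-numbered libraries in a replicate block called 6 Wnt genes higher and 7 lower, with Wnt10a added, and 2 pathway genes higher and 7 lower. Of all genes it called 13.6% in each direction. None of the called Wnt genes changed its direction under an alternative, and read depth, which is unknown, limits the genes near 0.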
